A study of Mus musculus with 6 samples.

Results

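Rbm24 and Cap2 lie next to each other on mouse chromosome 13. Both read lower in embryonic cortex of a conditional knockout of Setdb1, the gene of ESET. The genes described here are this pair with their closest relatives, Rbm38 on chromosome 2 and Cap1 on chromosome 4. They were taken as every probe set that the platform annotation gives to one of these 4 genes alone, which came to 10 of the 45037 probe sets on the array. Rbm24 had 5 probe sets, Cap2 had 2, Cap1 had 2 and Rbm38 had 1. Rbm24 and Cap2 were chosen by their log2 fold changes between the genotypes compared here, among the largest falls, so their values in that comparison are a description and carry no test. Rbm38 and Cap1 were chosen as paralogues.

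Rbm24 and Rbm38 encode RNA-binding proteins with a single RNA recognition motif each. Rbm24 is best known from skeletal muscle and heart, where it controls splicing and mRNA stability, and Rbm38 from the control of Cdkn1a mRNA and from the maturing red cell. Cap1 and Cap2 encode cyclase-associated proteins, which bind actin monomers and act with cofilin to take actin filaments apart and recharge the monomers. Cap1 is made in most tissues, whereas Cap2 is most abundant in striated muscle and is also made in brain.

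The study hybridised total RNA of dorsal telencephalon, the part of the forebrain that forms the cerebral cortex, from mouse embryos at E14.5, when cortical progenitors are producing neurons, to 6 single-colour arrays. There were 3 wild type (WT) and 3 conditional knockout (cKO) embryos, all labelled male and on a C57BL\6 background. In the cKO embryos Setdb1, which encodes the histone H3 lysine 9 methyltransferase ESET, was targeted through Emx2Cre. This is a Cre recombinase placed under Emx2, a gene of dorsal forebrain progenitors. Cells outside the Emx2 domain, such as vessel, blood and meningeal cells, would keep the gene, and whether WT embryos carried Cre is not given in the sources used here. Each array is taken as 1 embryo, although the arrays numbered 3 leave this uncertain, and arrays are named by group and number.

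The brightest Setdb1 probe set read 1162, 1185 and 1033 on WT 1, WT 2 and WT 3 and 704, 695.5 and 499.9 on cKO 1, cKO 2 and cKO 3, with no overlap. The difference on the log2 scale was -0.83 (SE 0.18) and did not pass over all probe sets (limma, adjusted p = 0.237). The dim 1458215_at went from 67.2 ± 9.51 to 22.8 ± 11.8 (SD, n = 3) with no overlap (-1.14, limma adjusted p = 0.247), and the dim 1416670_at overlapped (-0.44, limma adjusted p = 0.871). Which exons are deleted is not stated, so any of these may lie outside them. All 10 measured genes of a list of 12 telencephalon markers were detected above an intensity of 16 on at least 1 array, and their summed intensity ran from 63706 to 78684. Both arrays numbered 3 stood apart. WT 3, labelled male, read 17294 for Xist and 22.2 for the Y-linked Eif2s3y, and cKO 3 read 8811 and 961, while the other 4 arrays read at most 59.0 for Xist and at least 1927 for Eif2s3y. The values of WT 3 are at odds with its male label, and cKO 3 gave both signals. Whether each of these arrays is 1 embryo was not tested. These sex-linked genes were named after their values were seen. The arrays numbered 3 also carried more signal of red cells and muscle, and cKO 3 of mesenchyme, and those values are given beside the genes they touch.

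Rbm24 read lower in cKO. Its brightest probe set, 1454752_at, read 695.6, 671.5 and 751.8 on WT 1, WT 2 and WT 3, and 134.2, 194.4 and 228.3 on cKO 1, cKO 2 and cKO 3. The WT arrays lay close together, and every cKO array was far below them. The group means were 706 ± 41.2 and 186 ± 47.6 (SD, n = 3), a ratio of 3.80, and the log2 fold change was -1.87 (SE 0.21), with a log2 fold change being the difference of mean log2(intensity + 16), cKO minus WT.

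Cap2 showed the same separation by genotype. Its brighter probe set, 1450910_at, read 300.0, 283.2 and 307.6 on the WT arrays and 57.6, 57.3 and 113 on cKO 1, cKO 2 and cKO 3. The means were 297 ± 12.5 and 76.1 ± 32.3 (SD, n = 3), a ratio of 3.90, and the log2 fold change was -1.82 (SE 0.25). The other probe set, 1423222_at, read 189.5, 214.6 and 245.2 in WT and 42.5, 40.6 and 89.0 in cKO, with a log2 fold change of -1.72 (SE 0.27). Both probe sets placed cKO 3 highest among the cKO arrays, at 38.2% of the WT mean intensity on 1450910_at, where cKO 1 stood at 19.4% and cKO 2 at 19.3%. For Rbm24 on 1454752_at these shares were 19.0% on cKO 1, 27.5% on cKO 2 and 32.3% on cKO 3. In tissue RNA, fewer cells making a transcript and less of it per cell cannot be told apart.

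The 5 Rbm24 probe sets did not all read alike. On 1456180_at the WT arrays read 110.1, 129.9 and 84.1 and the cKO arrays 25.4, 14.0 and 21.1, a ratio of means of 5.35. The log2 fold change there was -1.77 (SE 0.21), and it ran from -2.38 with a pseudocount of 1 to -1.02 with one of 64, since the cKO values lie near 16. On 1458624_at the arrays read 129.7, 66.9 and 105.4 in WT and 61.0, 33.3 and 45.3 in cKO (log2 fold change -0.88, SE 0.27), so that the lowest WT array was only just above the highest cKO array. The remaining probe sets overlapped. On 1456491_at the values were 56.4, 46.2 and 34.4 in WT and 39.4, 48.5 and 24.5 in cKO, and on 1443715_at 40.0, 34.6 and 32.3 in WT and 47.9, 26.8 and 56.9 in cKO. Their log2 fold changes were -0.22 (SE 0.23) and 0.18 (SE 0.23). Both are dim on all 6 arrays. What part of the transcript each probe set reads was not analysed here.

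Over all 10 probe sets, 7 had every cKO array below every WT array, made up of 3 of 5 for Rbm24, 2 of 2 for Cap2 and 2 of 2 for Cap1. Among all 45037 probe sets, 6.07% did so. The choice of Rbm24 and Cap2 used this comparison, so nothing is read from their count. Of the 3 probe sets of Rbm38 and Cap1, limma called 0 at an adjusted p under 0.05, beside 0.275% of all probe sets, and 0 also had an unadjusted p under 0.05.

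**Figure D1:**
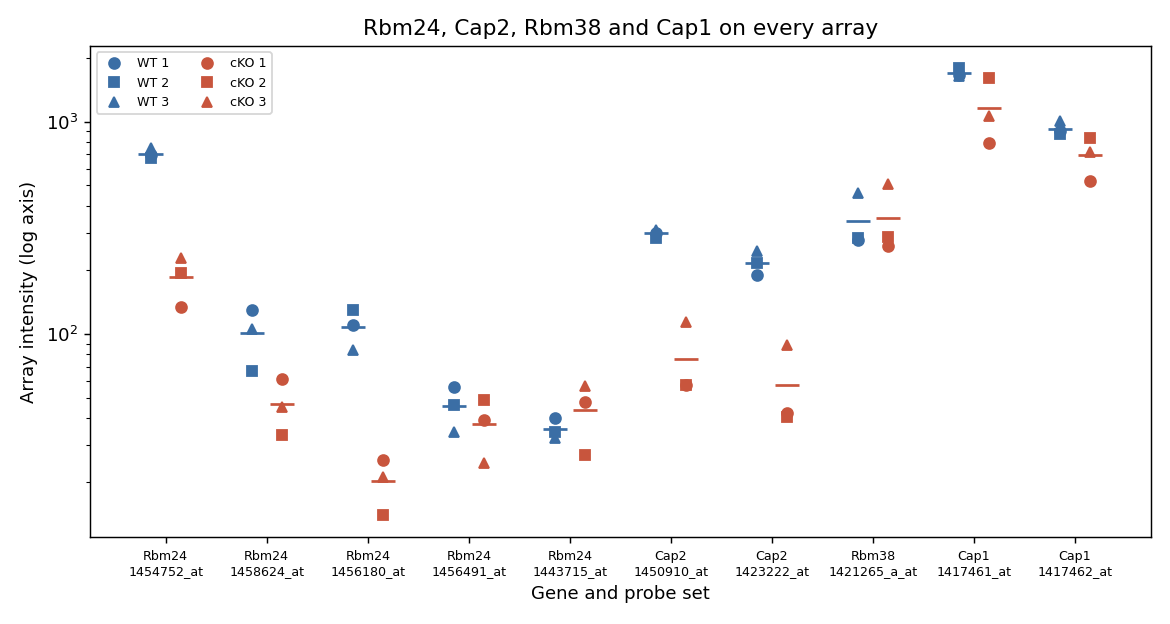
Array intensity (log axis) of the 10 probe sets of Rbm24, Cap2, Rbm38 and Cap1 on each of the 6 arrays, WT in blue and cKO in red, with marker shape for the array number and a bar at each group mean. Rbm24 1454752_at and both Cap2 probe sets show wide gaps between the groups, Rbm24 1456491_at and 1443715_at overlap below 60, and Rbm38 is high on both arrays numbered 3.

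Rbm38, the paralogue of Rbm24, overlapped between the genotypes. It read 277.3, 282.1 and 460.9 on WT 1, WT 2 and WT 3 and 259.1, 285.1 and 508.9 on cKO 1, cKO 2 and cKO 3. The high values were those of the arrays numbered 3 in both genotypes. The means were 340 ± 105 and 351 ± 137 (SD, n = 3), a difference of 0.02 on the log2 scale (SE 0.32, limma adjusted p = 0.999). Its 95% interval ran from -0.74 to 0.78, which leaves room for a moderate change of either sign. The sign was not stable, being -0.04 without both arrays numbered 3 and -0.03 with arrays centred on their medians. The summed intensity of 10 erythroid markers, of 13 written, moved with the same arrays. It was 69495 on WT 3 and 74190 on cKO 3, against 11296 to 17214 on the other 4, and the embryonic globin gene Hba-x, named after its values were seen, read 20068 and 19913 there against 270 to 513. Hbb-y, also named after its values were seen, gave most of the sum on every array. It read 41223 on WT 3, 43470 on cKO 3 and 10501 to 16248 on the other 4. None of the 10 markers was below 16 on every array. The part of red cells in the Rbm38 values was not tested.

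Cap1, the paralogue of Cap2, read lower on average in cKO, with a wide spread there. Its brighter probe set, 1417461_at, read 1657, 1782 and 1636 in WT and 788.5, 1606 and 1064 on cKO 1, cKO 2 and cKO 3. The groups did not overlap, although cKO 2 came close to WT 3. The means were 1692 ± 78.9 and 1153 ± 416 (SD, n = 3), which is -0.61 on the log2 scale (SE 0.26, 95% interval -1.24 to 0.03) and did not pass (limma adjusted p = 0.663). The other probe set, 1417462_at, read 900.7, 871.6 and 1007 in WT and 522.2, 840.5 and 716.8 in cKO, in the same order of cKO arrays, or -0.43 on the log2 scale (SE 0.20, limma adjusted p = 0.710). On 1417461_at the fold change was -0.37 without cKO 1 and -0.87 without cKO 2. Whether Cap2 and Cap1 differ in their response was not tested, since Cap2 was picked for its fall.

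Rbm24 and Cap2 are both known as genes of striated muscle, so its markers were read beside them. Of 24 such markers, all measured, limma called 0 in either direction, and 0 had an unadjusted p under 0.05. Over all genes limma called 0.627%, and 4.39% were lower and 5.17% higher at that unadjusted level, called nominal from here on. Their median log2 fold change was 0.26, against 0.0068 over all 18193 genes. Their summed intensity was 831, 672 and 1280 on WT 1, WT 2 and WT 3 and 835, 630 and 2133 on cKO 1, cKO 2 and cKO 3. The sum was thus highest on cKO 3, which was also highest among the cKO arrays on Rbm24 1454752_at and both Cap2 probe sets. On Rbm24 1458624_at and 1456180_at cKO 1 was highest. Myf5 was below 16 on every array, and Myf6, Myh8, Tnnc2 and Tnnt3 were below it on every WT array. The median of this list thus rests in part on values near background. All 14 mesenchyme markers were measured, and their sum was 3785 on WT 3 and 4149 on cKO 3 against 1426 to 2814 elsewhere. Zic1 alone, a gene of meninges and of some neural cells, gave 2701.5 of the sum on WT 3. Without Zic1, left out after its values were seen, the sum was 970, 709 and 1083 on WT 1, WT 2 and WT 3 and 672, 788 and 2794 on cKO 1, cKO 2 and cKO 3, so that cKO 3 alone stood apart. Without both arrays numbered 3 the log2 fold change of Rbm24 was -1.98 and that of Cap2 -2.07, both as large as with them. The part of muscle or mesenchyme in the spread among the cKO arrays was not tested. The lens is another tissue known to make Rbm24. Of 14 lens markers 13 were measured, their sum ran from 233 to 325 in WT and from 274 to 437 in cKO, and Cryaa, Cryga and Crygd were below 16 on every array.

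**Figure D2:**
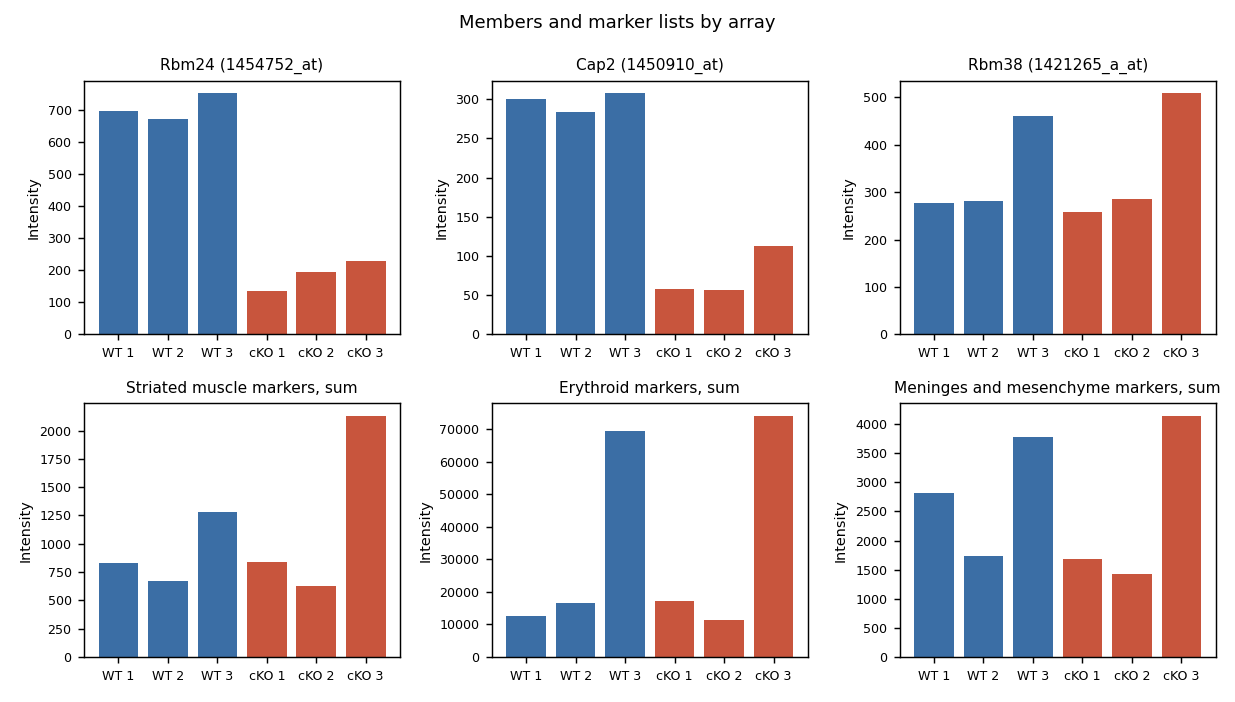
Bars of array intensity from 0 for Rbm24, Cap2 and Rbm38 on their brightest probe sets (top) and of summed intensity for the striated muscle, erythroid and mesenchyme marker lists (bottom) on the 6 arrays, WT in blue and cKO in red. The muscle and erythroid sums peak on WT 3 and cKO 3, as Rbm38 does, the mesenchyme sum of WT 3 is mostly Zic1, and Rbm24 and Cap2 separate by genotype and are highest on cKO 3 among the cKO arrays.

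The next comparison asked how the other genes on either side of the pair read. In the order of the RefSeq gene table (assembly GRCm38.p6), 2 genes lie between Rbm24 and Cap2, both long non-coding RNAs (Gm35110 and LOC115488182), and 0 are protein-coding. Neither has a probe set in the annotation. Of the 20 measured genes closest in order, 10 on each side, limma called 0 in either direction at an adjusted p under 0.05 (smallest adjusted p = 0.396), where 0.627% of all genes were called. At the nominal level 2 were lower and 0 higher, beside 4.39% lower and 5.17% higher among all genes. Their median log2 fold change was -0.01, and the values ran from -0.39 to 0.63.

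The gene just before Rbm24 is Stmnd1, named for its stathmin domain. It was dim, at 13.4, 20.2 and 32.8 in WT and 61.5, 25.5 and 36.0 in cKO, with overlapping groups and a log2 fold change of 0.56 (SE 0.29). The gene just after Cap2 is Fam8a1, a part of the machinery that clears proteins from the endoplasmic reticulum. It read 8921, 8664 and 7193 in WT and 6415, 6104 and 6321 in cKO, so every cKO array was below every WT array, yet the log2 fold change of -0.39 (SE 0.13) did not pass (adjusted p = 0.396 by limma). Farther before the pair, 5033430I15Rik stood at 0.27, Atxn1, the ataxin 1 gene, at 0.03, Mylip, a ubiquitin ligase for the LDL receptor, at -0.26 and Dtnbp1, the dysbindin gene, at -0.10. Farther after it, Nup153 of the nuclear pore was at -0.09, the kinesin gene Kif13a at -0.08, Nhlrc1, the ubiquitin ligase malin, at -0.02 and Tpmt, a thiopurine methyltransferase, at 0.35. Of the 20 genes, 3 did not overlap downward (Fam8a1, Jarid2 and Dek) and 1 upward (Tpmt), where 7.64% and 7.90% of all genes did so. Jarid2, a partner of Polycomb repressive complex 2, and Dek, a chromatin protein, were named after their values were seen.

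**Figure D3:**
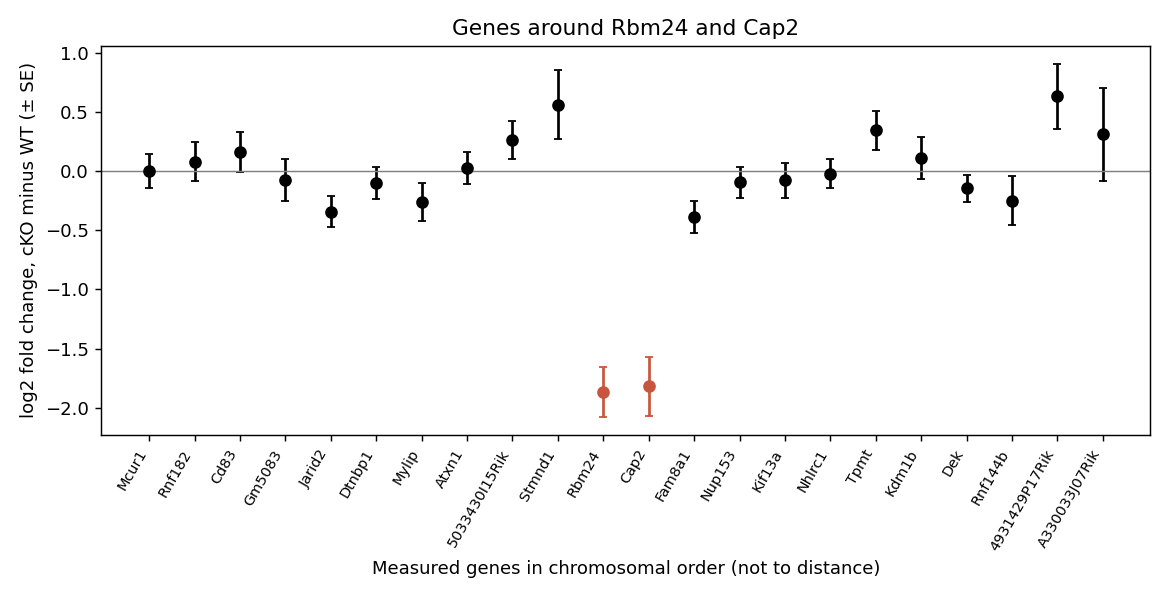
Log2 fold change, cKO minus WT, with SE as error bars, for Rbm24 and Cap2 (red, brightest probe sets, fit over all probe sets) and the 10 measured genes on each side (black, fit over genes) in chromosomal order, with no scale of distance. Rbm24 and Cap2 lie at -1.87 and -1.82, and the 20 other genes lie between -0.39 and 0.63. Rbm24 and Cap2 were chosen for their falls in this comparison, so the gap is no test.

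The loci of the paralogues were read in the same way, beside the same shares over all genes (0.627% called, and 4.39% lower and 5.17% higher at the nominal level). Around Rbm38, limma called 0 of 20 measured genes (smallest adjusted p = 0.207), with 2 lower and 3 higher at the nominal level, and the median log2 fold change was 0.07. Around Cap1 it called 0 of 20 (smallest adjusted p = 0.0697), with 1 lower and 1 higher at the nominal level, and the median was -0.01.

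The neighbouring genes that were both called are named here after their values were seen. Rbm24 with Cap2 was set aside, since its values chose it. Of the 18004 other pairs of genes next to each other among the measured genes placed on chromosomes, both genes were called lower in 1 pair and higher in 4, and 0 pairs were called in opposite directions. The lower pair is Icam4 and Icam5, adjacent adhesion molecule genes. Icam4 went from 43.2 ± 6.84 to 5.70 ± 0.92 and Icam5 from 67.3 ± 14.96 to 11.8 ± 5.26 (SD, n = 3). Both cKO means are below the pseudocount of 16, although Icam5 read 17.45 on cKO 2. The pairs called higher were Adamts1 with Adamts5, both secreted metalloproteases, Mcfd2 with 4833418N02Rik, Znf41-ps with Gm13238, and Gm9222 with 5730507C01Rik. In 157 of these pairs both genes had all cKO arrays below all WT arrays. Among single genes, 0.242% were called lower and 0.385% higher, and 7.64% had all cKO arrays below all WT arrays. Whether adjacent genes went together more often than these shares give was not tested. The counts of called pairs changed with the arrays and genes used. Without any 1 of the 6 arrays the lower pairs came to 0 and the higher pairs to 0 or 1. With a filter that leaves out dim genes, Icam4 and Icam5 among them, the lower pairs were Tmem163 with 2900009J06Rik and Prickle1 with Adamts20.

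The promoters of the pair are shown because these neighbouring genes read lower together. Each is the 250 bases before the start in the RefSeq promoter table (GRCm38.p6), with matches to the E-box CANNTG in capitals.
Rbm24 (chr13:46418050-46418299, plus strand): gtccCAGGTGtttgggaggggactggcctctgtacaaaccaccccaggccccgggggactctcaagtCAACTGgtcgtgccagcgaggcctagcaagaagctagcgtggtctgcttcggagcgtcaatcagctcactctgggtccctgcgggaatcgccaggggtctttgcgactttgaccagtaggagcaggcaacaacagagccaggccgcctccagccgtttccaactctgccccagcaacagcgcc
Cap2 (chr13:46501653-46501902, plus strand): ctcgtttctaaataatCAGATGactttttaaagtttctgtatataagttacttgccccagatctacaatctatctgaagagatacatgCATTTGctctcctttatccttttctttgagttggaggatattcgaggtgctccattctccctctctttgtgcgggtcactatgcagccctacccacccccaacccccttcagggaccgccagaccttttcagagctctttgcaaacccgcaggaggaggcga
Both genes point the same way along the chromosome, and the sequences differ in composition. The Rbm24 window has 62.4% G and C with 12 CpG and the Cap2 window 46.4% with 6, beside medians of 52.4% and 6 over 32841 promoters. For Rbm24, 198 of the 250 bases lie inside the gene's span in the RefSeq gene table, which starts farther upstream.

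Each window holds 2 E-box matches on either strand, whose first bases lie 246 and 183 bases before the start in Rbm24 and 234 and 162 in Cap2. Such a match occurs in 66.2% of all promoters. The letters TATAAA (in 12.4% of promoters), GGGCGG (the GC box, 32.7%) and CCAAT (33.9%), and the MEF2 and CArG motifs of muscle promoters (2.92% and 1.47%), had no match on either strand in these windows. The Rbm38 window, with 61.6% G and C and 28 CpG, held none of the motifs, and the Cap1 window, with 57.2% and 9 CpG, held 1 E-box and 1 CCAAT match.

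The genes whose profile came closest were found by the root mean square difference over the 6 arrays of log2 values less the WT mean, among genes with a mean at or above the median. Cap2 itself lies below that median. Its difference from Rbm24 was 0.19, smaller than that of all 9096 genes ranked against Rbm24, and Rbm24 ranked 1 among the 9097 genes compared with Cap2. Both were picked for falling, so this closeness describes their choice. Next to Rbm24 came Kirrel3, an immunoglobulin family adhesion molecule, at 0.28, Pisd-ps3 at 0.30, the transcriptional repressor Bcl6 at 0.31, Gnal, a stimulatory G protein alpha subunit, at 0.31 and Tmtc1 at 0.33. Next to Cap2 came Pisd-ps3 at 0.25, Gnal at 0.27, Kirrel3 at 0.29 and Tmtc1 at 0.31. Gnal read 594.9, 541.5 and 556.3 in WT and 173.3, 170.0 and 232.5 in cKO, so that cKO 3 was highest among the cKO arrays there too. The measure holds the step between the genotypes as well as the spread within them.

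The other genes of the Rbm series were read as a list. Among 34 measured genes named Rbm and a number, without Rbm24 and Rbm38 but with 2 opposite-strand transcripts (Rbm3os and Rbm46os, neither at the nominal level), limma called 0 in either direction, where 0.242% of all genes were called lower and 0.385% higher. Their median log2 fold change was 0.01, and 1 was lower and 2 higher at the nominal level, where 4.39% and 5.17% of all genes were. Those higher were Rbm46 and Rbm44, both germ cell genes. Rbm46 went from 23.8 ± 14.6 to 68.7 ± 9.13 (SD, n = 3), or 1.14 on the log2 scale (SE 0.26, limma adjusted p = 0.174), and Rbm44 from 10.6 ± 7.18 to 38.5 ± 19.3 (1.02, SE 0.31). Rbm27 stood at -0.46 and Rbm12b1 at 0.44.

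Among 30 tissue-restricted splicing regulators, all measured, limma called 0, with 2 lower and 0 higher at the nominal level and a median log2 fold change of -0.03. All genes stood at 0.627% called, and at 4.39% lower and 5.17% higher at the nominal level. The smallest p was that of Rbfox1, a neuronal and muscle splicing regulator. It read 2870, 2335 and 2262 in WT and 1372, 1201 and 1194 in cKO. Every cKO array was well below every WT array, at -0.97 on the log2 scale (SE 0.15, limma adjusted p = 0.0569). It passed in 4 of the alternative settings, with the smallest adjusted p = 0.00464 under trend and robust settings of limma. Khdrbs2 was at -0.42, Celf5 at -0.26 and Mbnl1 at 0.26, none past the threshold.

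Of 11 mRNAs reported to be bound by Rbm24 or Rbm38, 8 were measured, and limma called 0, with 1 lower and 0 higher at the nominal level (4.39% and 5.17% of all genes) and a median of -0.03. Cdkn1a, the cell cycle inhibitor gene p21 and the best known shared target, read 153, 140 and 183 in WT and 119, 137 and 163 in cKO. Its groups overlapped, at -0.17 on the log2 scale (SE 0.16, limma adjusted p = 0.853). Trp73, a transcription factor of Cajal-Retzius neurons, read 252.6, 321.1 and 163.1 in WT and 116.3, 86.1 and 95.3 in cKO, at -1.14 (SE 0.25, limma adjusted p = 0.163). Myc was at -0.35 and Elavl1 at -0.07. These are mRNA levels, and splicing and translation were not measured.

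Cap2 acts in actin turnover, and 30 of 32 other genes of that process were measured. Limma called 0 in either direction, with 1 lower and 1 higher at the nominal level (4.39% and 5.17% of all genes, with 0.627% called) and a median of -0.05. Coro1a, a coronin that binds actin filaments, was at -0.54 (SE 0.15, adjusted p = 0.260 by limma) and its relative Coro2b at 0.48 (SE 0.15, adjusted p = 0.360). Twf2, a twinfilin that binds actin monomers, was at 0.17, and Scin, the filament-severing scinderin, at 0.35. Of 21 genes tied to SRF and its actin-sensing cofactors, all measured, limma called 0, with 0 lower and 1 higher at the nominal level and a median of -0.05, beside the same shares. That 1 was Vcl, the vinculin gene, at 0.52 (SE 0.15, adjusted p = 0.279). Srf itself was at -0.16.

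**Figure D4:**
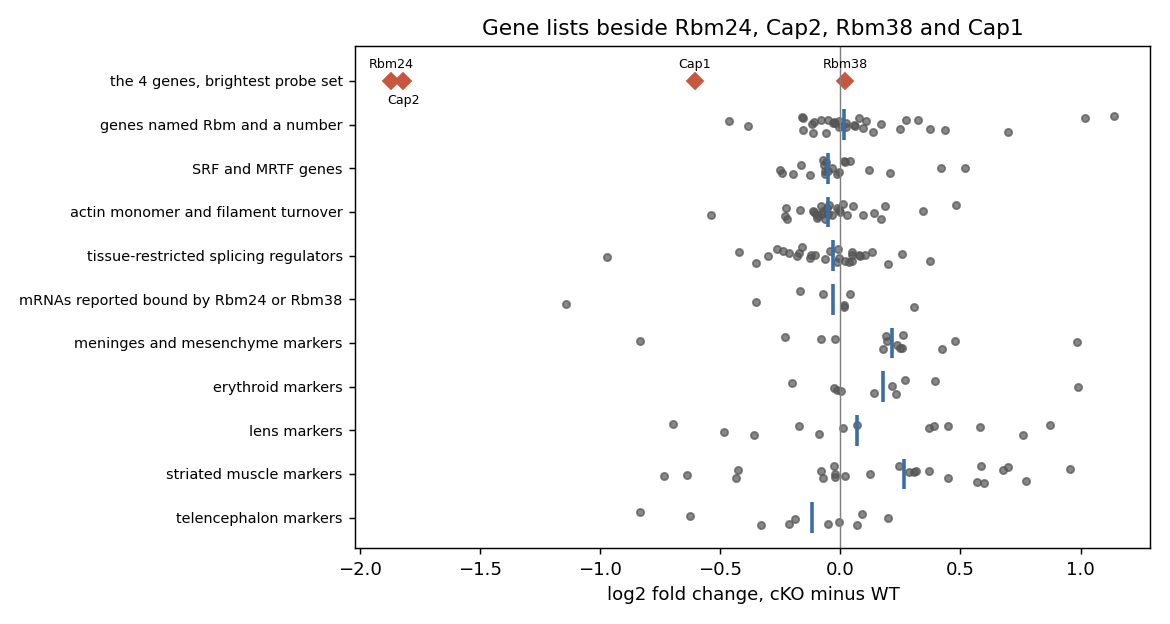
Log2 fold change, cKO minus WT, of each measured gene (grey points, spread vertically for sight) in 10 gene lists, with the list median as a blue bar, and of the brightest probe sets of Rbm24, Cap2, Cap1 and Rbm38 (red diamonds, top row). Rbm24 and Cap2, at -1.87 and -1.82, lie below every listed gene, and Rbm38 lies at 0.02. Rbm24 and Cap2 were chosen for their falls in this comparison, so their place below the lists is no test.

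Over the remaining marker lists limma also called 0, beside 0.627% of all genes, and nominal counts stand beside 4.39% lower and 5.17% higher. The telencephalon list had 2 genes lower and 0 higher at the nominal level. These were Emx2, which names the Cre line, at -0.83 (SE 0.14, adjusted p = 0.0714 by limma) and Eomes, a factor of intermediate progenitors, at -0.63 (SE 0.13, adjusted p = 0.140). Emx2 passed in 4 alternative settings and Eomes in 2. The lens list had 1 lower and 1 higher at that level, the erythroid list 0 and 1, and the mesenchyme list 0 and 1.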

How the data were processed

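The authors deposited linear array intensities, 1 per probe set and array, made with the Affymetrix Expression Console, per the submitters' processing notes. The summary algorithm is not given in the sources used here. Trimmed means (2% at each end) lay between 497.2 and 497.7, and medians between 91.1 and 119. Values were taken to log2(intensity + 16), which makes fold changes of dim genes smaller, with no further normalization. Genotype was fitted with limma 3.58.1 in R 4.3.3 over all 45037 probe sets, used for the 4 genes and Setdb1, and over a table of 18193 genes (brightest probe set each), used for neighbours, lists and pairs, with Benjamini-Hochberg adjustment over each table and a threshold of 0.05. The fit code was tested on simulated arrays with independent noise. These lack the shared pattern of the arrays numbered 3, so the test checks the code alone. With 3 arrays per group precision is limited. The limma p-values set the genotype difference against the spread between these arrays. Limma moderates that spread over all probe sets or genes fitted.

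Gene order came from RefSeq through Entrez identifiers, which placed 18026 genes. The genes and lists were chosen with earlier results of these data known. The text names all probe sets of the 4 genes, the 5 nearest genes on each side of the pair and Setdb1. It also names the 5 most similar profiles. Up to 4 genes with the smallest p are named from each list except the muscle, lens, erythroid and mesenchyme markers. In those lists genes are named on other grounds, such as low values. Some list members are given by count alone. Alternatives were pseudocounts of 1 and 64, quantile normalization, median centring, a filter on low values, array weights, trend and robust settings, probe sets without _x_at and _s_at, the replicate block, both arrays numbered 3 left out or given a term, and each array left out.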

Additional observations from a re-analysis of the deposited data

How the results depend on the processing

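Rbm24 on 1454752_at lay between -2.02 and -1.64 over the 12 alternatives that can move it and Cap2 on 1450910_at between -2.09 and -1.39, the latter end with a pseudocount of 64. The other 5 leave a difference of means as it is by construction. No neighbour was called under any alternative. Rbm38 turned to -0.03 with centred arrays and -0.04 without both arrays numbered 3, and ran from -0.27 to 0.25 when 1 array was left out. It stayed uncalled, as did Cap1. Adjacent pairs called lower, Rbm24 with Cap2 set aside, came to 2 with a pseudocount of 64, 2 with the filter (neither of them Icam4 with Icam5, which it leaves out) and 2 with array weights. They came to 0 with a pseudocount of 1, 0 with the replicate block, 0 without both arrays numbered 3, 0 with a term for them and 0 when 1 array was left out. Pairs called higher came to 1, 0, 0, 2 and 0 to 1 under the latter 5. Fits on fewer arrays have less power, and otherwise the cause was not tested. Listed genes called lower came to 2 with a pseudocount of 64, 3 with the filter, 3 with trend and robust settings and 2 with array weights. Among uncalled genes, Atxn1 turned to -0.02 with centred arrays and -0.01 with array weights, Twf2 to -0.09 and Srf to 0.29 without _x_at and _s_at probe sets. When 1 array was left out, signs also turned for Atxn1 (-0.05 to 0.12), Kif13a (-0.15 to 0.01), Nhlrc1 (-0.07 to 0.05), Epb42 (-0.17 to 1.01) and Alas2 (-1.41 to 1.78).

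Nothing in the labels but the number links same-numbered arrays. Their deviations from the group means correlated at 0.0787, 0.194 and 0.410, so not every pair passed 0.1. WT 2 and WT 3 correlated best with the cKO array of their own number, and WT 1 with cKO 2 (0.109). In this balanced design the replicate block cannot move a fold change (Rbm24 stays -1.87), only its error, and it says nothing of stability. Signal near background limits the dim Rbm24 probe sets.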
